A study of Mus musculus with 6 samples.

Results

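The genes described here carry glucose through the cardiomyocyte (CM). They cover glucose transport, glycolysis, the enzymes that tune glycolysis, lactate, glycogen and the pentose phosphate pathway. The set was given as 39 gene symbols chosen by function, of which 38 were found by symbol among the 16448 genes of the deposited RNA-seq table and 36 were among the 11364 genes tested. Expression of *Aldoc* was not analysed here, and *Pfkfb4* and *Slc16a3* were in the table but too low to test. CMs were isolated from hearts of mice on a C57BL/6 background, 8 to 12 weeks old. Controls (CtrlCre, n = 3) carried the αMHC-Cre transgene with intact *Cpt1b*, and Cpt1bcKO mice (n = 3) carried the same transgene with floxed *Cpt1b*. Cre is driven there by the *Myh6* promoter, which acts in CMs from embryonic stages on. *Cpt1b* encodes the muscle carnitine palmitoyltransferase that brings long-chain fatty acids to mitochondria, and the comparison asks how CMs differ when this fuel route is closed. It had 1861, 893 and 1443 normalised read counts in CtrlCre samples 1, 2 and 3 and 211, 353 and 285 in Cpt1bcKO samples 1, 2 and 3, which matches the genotype labels.

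A CM takes up glucose through GLUT1 (*Slc2a1*) and the insulin-responsive GLUT4 (*Slc2a4*), and a hexokinase traps it as glucose 6-phosphate. From there carbon can run down glycolysis to pyruvate, be stored as glycogen by way of glucose 1-phosphate and UDP-glucose, or enter the pentose phosphate pathway, which yields NADPH and ribose. Pyruvate and lactate are exchanged by lactate dehydrogenase, and lactate crosses the cell membrane on monocarboxylate transporters. The adult heart burns mostly fatty acids but takes up and oxidises lactate and draws on glucose under load.

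Values are the authors' read counts after scaling per sample and rounding, called normalised read counts below. They summed to between 13393411 and 31722217 per sample, most of which was the mitochondrial rRNA gene *mt-Rnr2* (61.8% to 80.8%), and the genes left after mitochondrial-encoded and rRNA genes were set aside summed to 3146414 to 3551692. CM markers dominated, with a summed level of the 10 listed genes of 539642 to 636004 in CtrlCre and 358996 to 573894 in Cpt1bcKO samples. Of these 10 CM markers, 9 were lower in Cpt1bcKO samples (median log2 fold change −0.38), and 2 (*Tnni3* and *Pln*) had an unadjusted and 0 an adjusted p below 0.05 in limma. Markers of other cell types were also present. The sum of 10 fibroblast markers was 1104 to 1470 in CtrlCre and 1866 to 2305 in Cpt1bcKO samples, with 9 of the 9 tested higher and 2 of them past an adjusted p of 0.05 (limma), and *Tcf21*, below the filter, at 4 to 16. The sum of 9 mural and smooth muscle markers was 3948 to 5152 and 2914 to 3318, but this gap came from *Abcc9*, which CMs also make, and without it the sums of 1109 to 2313 and 1175 to 1739 overlapped. Of the 7 tested, 3 were higher and 4 lower, with 2 of the lower ones at an unadjusted p below 0.05 and without overlap, which were *Abcc9*, also past the adjusted threshold (log2 fold change −0.80, adjusted p = 0.0123 in limma), and *Acta2* (−1.20, adjusted p = 0.0835). Endothelial markers (1429 to 2960 and 2595 to 2966, 10 genes) and leukocyte markers (144 to 268 and 191 to 216, 10 genes) overlapped between the groups, although all 10 endothelial genes were higher (median log2 fold change 0.34, 1 at an unadjusted and 0 at an adjusted p below 0.05 in limma). CtrlCre sample 1 had the lowest endothelial sum (1429), beside 2698 and 2960 in CtrlCre samples 2 and 3. Cpt1bcKO samples 1, 2 and 3 had 2953, 2966 and 2595. With a term for the replicate number, further markers passed the adjusted threshold in limma, although the numbers were not taken as pairs (below). That term called 249 genes higher and 354 lower in the whole table, beside 75 and 103 without it. The adjusted p was then 0.00104 for *Tnni3*, 0.00224 for *Pln*, 0.00247 for *Acta2*, 0.0171 for *Col1a2* and 0.0108 for *Col3a1*. The part of these marker shifts in the results that follow was not tested. The 2 of 7 erythroid markers in the table summed to at most 20. Sample 1 of each group was female by its sex-linked genes and the others male.

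The genes of the set moved in both directions, and 4 passed the test below. Of the 36 genes tested, 18 were higher and 18 lower in Cpt1bcKO CMs. Their median log2 fold change was 0.02, beside −0.0013 over all genes tested. An adjusted p below 0.05 (limma's moderated test on log2(value + 1), Benjamini–Hochberg over all genes tested) was reached by 4 genes. *Ugp2* and *Pfkfb2* rose and *Ldha* and *Slc16a1* fell. Of all genes tested, 0.66% passed this threshold upwards and 0.906% downwards, 1.57% in all, beside 11.1% of the members. These are 75 genes higher and 103 lower in the whole table, a balance that turned to 103 higher and 74 lower, with 2 members higher and 0 lower, when samples were scaled to the sum without mitochondrial-encoded and rRNA genes. An unadjusted p below 0.05 was reached by 9 members (25.0%, against 13.9% of all genes), 5 of them upwards and 4 downwards. No overlap between the groups was seen in 12 members (33.3%, against 18.7% of all genes), 7 higher and 5 lower. In bulk RNA of this kind, a smaller share of CMs and less RNA per CM cannot be told apart.

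**Figure D1:**
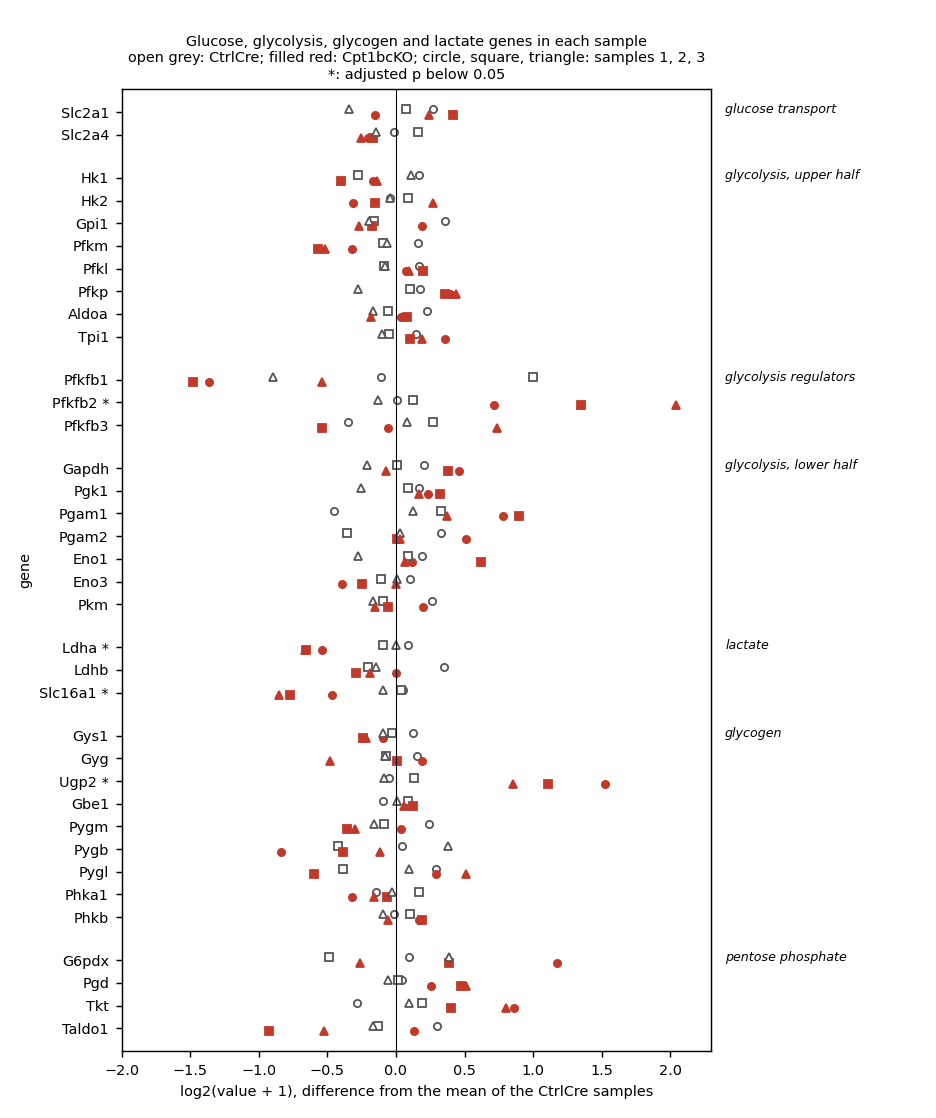
Each of the 36 tested genes in each of the 6 samples, as log2(value + 1) minus the mean of the CtrlCre samples (x axis), grouped by role. Open grey symbols are CtrlCre samples, filled red symbols Cpt1bcKO samples, and circles, squares and triangles are samples 1, 2 and 3. The red symbols of *Pfkfb2* and *Ugp2* all lie to the right of the grey ones and those of *Ldha* and *Slc16a1* to the left, while most other genes scatter around 0.

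The promoters of 3 of these 4 genes are shown because *Ldha* and *Slc16a1*, the lactate pair, fell together and *Ugp2* moved the other way. They are the 250 bases before and 50 bases after a RefSeq transcription start (GRCm38.p6), written 5′ to 3′ along the gene, with capitals for every match to ACGTG or GCGTG on either strand, the core of the hypoxia response element bound by HIF factors. The *Ldha* window is chr7:46845554-46845853 on the plus strand, that of *Slc16a1* chr3:104638414-104638713 on the plus strand and that of *Ugp2* chr11:21371218-21371517 on the minus strand.
Ldha: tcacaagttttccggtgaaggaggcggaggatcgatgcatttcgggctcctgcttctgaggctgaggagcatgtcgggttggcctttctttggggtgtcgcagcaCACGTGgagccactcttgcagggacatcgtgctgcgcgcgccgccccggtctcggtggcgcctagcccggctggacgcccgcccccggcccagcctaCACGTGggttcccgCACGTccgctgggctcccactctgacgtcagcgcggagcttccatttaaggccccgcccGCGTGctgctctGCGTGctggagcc
Slc16a1: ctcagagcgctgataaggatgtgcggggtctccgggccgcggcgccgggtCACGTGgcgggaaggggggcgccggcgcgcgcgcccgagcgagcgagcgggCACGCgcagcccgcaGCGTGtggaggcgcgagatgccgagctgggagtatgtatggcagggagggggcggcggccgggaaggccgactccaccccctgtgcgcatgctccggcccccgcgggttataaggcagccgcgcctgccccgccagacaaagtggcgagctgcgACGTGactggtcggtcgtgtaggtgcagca
Ugp2: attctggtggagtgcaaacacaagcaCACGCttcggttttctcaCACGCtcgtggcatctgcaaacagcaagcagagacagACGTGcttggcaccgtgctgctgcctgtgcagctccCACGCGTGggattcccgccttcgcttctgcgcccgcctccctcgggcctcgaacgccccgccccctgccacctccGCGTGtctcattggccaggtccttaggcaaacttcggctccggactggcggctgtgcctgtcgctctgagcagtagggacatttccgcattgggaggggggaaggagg
The *Ldha* window held 7 matches, the *Slc16a1* window 5 and the *Ugp2* window 6. A CACGTG, the E-box, counts as 2 overlapping matches because it reads the same on both strands, and the *Ldha* window had 2 of them, the *Slc16a1* window 1 and the *Ugp2* window 0. Matches of this length are frequent. At least 1 was found in 44.0% of the 32544 windows of this length in the RefSeq table, in 69.1% of the 8318 tested genes with a window, and in 33 of the 38 set members with a window (86.8%, *Aldoc* included), counting any window of a gene. The E-box was found in 7.17% of all windows, in 12.3% of those tested genes and in 6 of the 38 members. GGGCGG, the GC box, was found in 35.9% of all windows, in 70.6% of those tested genes and in 30 of the 38 members. *Slc2a4* has no window in the RefSeq table. None of the 3 *Pfkfb2* windows lay within 1000 bases of the start of that gene in the deposited table, so none is shown. The matches describe letters in these windows and not binding.

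Neither glucose transporter passed the test. *Slc2a4* (GLUT4, ENSMUSG00000018566) had 830, 936 and 756 normalised read counts in CtrlCre CMs and 726, 744 and 701 in Cpt1bcKO CMs. Every Cpt1bcKO sample lay below every CtrlCre sample, but the step was small, with a log2 fold change of −0.21 (SE 0.138, 95% confidence interval −0.52 to 0.09, adjusted p = 0.542 in limma). *Slc2a1* (GLUT1) had 54, 47 and 35 against 40, 60 and 53, and the groups overlapped. Its log2 fold change of 0.17 had an interval from −0.42 to 0.76. Per kb of exon, *Slc2a4* made up 94.9% ± 0.881 of the sum of these 2 transporters in CtrlCre and 93.5% ± 1.18 in Cpt1bcKO CMs (SD, n = 3 each).

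In upper glycolysis, 3 of the 8 genes tested were higher and 5 lower, and 0 passed the adjusted threshold of limma's test, with 2 (25.0%, against 13.9% of all genes) at an unadjusted p below 0.05. *Hk2*, the insulin-responsive hexokinase of muscle, had 1753, 1925 and 1759 in CtrlCre and 1457, 1631 and 2181 in Cpt1bcKO samples. *Hk1*, the hexokinase of most tissues, had 820, 602 and 786 against 648, 553 and 663. Both overlapped between the groups, with log2 fold changes of −0.07 (95% confidence interval −0.43 to 0.30) and −0.24 (−0.59 to 0.12). *Pfkm*, the muscle subunit of phosphofructokinase 1, which catalyses the committed step of glycolysis, had 3323, 2788 and 2847 normalised read counts in CtrlCre and 2382, 2012 and 2078 in Cpt1bcKO samples. All Cpt1bcKO samples were lower, by 27.8% in the means and with a log2 fold change of −0.47 (SE 0.141, unadjusted p = 0.00725, adjusted p = 0.162 in limma, and 0.0184 with a term for sex). With the sex term, 243 genes of the whole table were called higher and 331 lower, beside 75 and 103 without it. *Pfkp*, the platelet-type subunit, went the other way, with 296, 282 and 217 in CtrlCre and 345, 336 and 356 in Cpt1bcKO samples. Again the groups did not overlap, and the log2 fold change was 0.39 (SE 0.164, adjusted p = 0.311 in limma). *Pfkl*, the liver-type subunit, had 338, 283 and 285 against 317, 345 and 322 and overlapped.

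The 3 subunits were also set against each other within each sample, which does not depend on how samples were scaled. The log2 ratio of *Pfkl* plus *Pfkp* to *Pfkm* was −2.39, −2.30 and −2.50 in CtrlCre and −1.85, −1.56 and −1.61 in Cpt1bcKO samples. This is a difference of 0.72 between groups that did not overlap. An exact two-sided permutation test gave p = 0.10, the smallest that 3 samples against 3 allow, and 0.30 after adjustment over the 9 isoform ratios tested. *Pfkm* still supplied, per kb of exon, most of the phosphofructokinase signal, 93.2% ± 0.302 in CtrlCre and 89.6% ± 1.02 in Cpt1bcKO CMs (SD, n = 3 each). *Pfkp* overlaps *Pitrm1* and *Pfkm* overlaps *Senp1* on the opposite strand, and it is not given whether strand was used in counting. *Pitrm1* had 299 to 665 normalised read counts and *Senp1* 38 to 75, and their part in these values was not tested.

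*Aldoa*, the muscle aldolase, had 6201, 5114 and 4725 against 5461, 5610 and 4692, a log2 fold change of −0.02 (95% confidence interval −0.36 to 0.32). *Gpi1*, which turns glucose 6-phosphate into fructose 6-phosphate, ranged from 1012 to 1489 in CtrlCre and from 964 to 1325 in Cpt1bcKO samples, and *Tpi1*, which interconverts the triose phosphates, from 905 to 1073 and from 1043 to 1241. Both overlapped between the groups.

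The bifunctional PFKFB enzymes make and degrade fructose 2,6-bisphosphate, the strongest activator of phosphofructokinase 1, and *Pfkfb2* is the heart form. *Pfkfb2* (ENSMUSG00000026409, chr1:130689182-130729253, minus strand, GRCm38) had 121, 131 and 110 normalised read counts in CtrlCre samples 1, 2 and 3 and 198, 309 and 500 in Cpt1bcKO samples 1, 2 and 3. All Cpt1bcKO samples were higher but spread widely among themselves, from 198 to 500, and sample 3 with the highest value also had the largest share of *mt-Rnr2* (80.8%), whose part in this value was not tested. Its log2 fold change was 1.37 (SE 0.285, 95% confidence interval 0.74 to 2.0, adjusted p = 0.0458 in limma), a 2.78-fold rise of the mean. The call held without Cpt1bcKO sample 1 (adjusted p = 0.00365 in limma) and was lost without any other sample, with adjusted p values of 0.118, 0.121 and 0.166 without CtrlCre samples 1, 2 and 3, and 0.200 and 0.0761 without Cpt1bcKO samples 2 and 3. *Yod1*, which overlaps *Pfkfb2* on the opposite strand, had 35 to 57. *Gm29427*, which overlaps it on the same strand, had 3, 1 and 2 in CtrlCre and 5, 6 and 23 in Cpt1bcKO samples. The part of these neighbours in the *Pfkfb2* values was not tested.

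*Pfkfb1*, the form of liver and muscle, had 30, 66 and 17 in CtrlCre and 12, 11 and 22 in Cpt1bcKO samples. The groups overlapped at these low levels, and the log2 fold change of −1.13 had an SE of 0.486 (unadjusted p = 0.0421, adjusted p = 0.339 in limma). *Pfkfb3*, the inducible form, had 31, 48 and 42 against 38, 27 and 67, a log2 fold change of 0.05 (95% confidence interval −0.72 to 0.81). *Pfkfb4*, the testis form, had 0, 8 and 5 against 8, 11 and 6 and was not tested. *Pfkfb2* made up, per kb of exon, 59.0%, 42.5% and 58.4% of the sum of the 4 PFKFB genes in CtrlCre and 73.9%, 83.3% and 81.6% in Cpt1bcKO samples, without overlap. The log2 ratio of *Pfkfb3* to *Pfkfb2* was −1.93, −1.43 and −1.37 in CtrlCre and −2.35, −3.47 and −2.88 in Cpt1bcKO samples, a difference of −1.32 (exact permutation p = 0.10, adjusted 0.30).

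Lower glycolysis, from glyceraldehyde 3-phosphate to pyruvate, held 5 higher and 2 lower genes among the 7 tested, of which 0 passed the adjusted threshold in limma and 1 (14.3%, near the 13.9% of all genes) had an unadjusted p below 0.05. This was *Pgam1*, the brain-type phosphoglycerate mutase, with 34, 59 and 51 normalised read counts in CtrlCre and 81, 88 and 61 in Cpt1bcKO samples. The groups did not overlap, and the log2 fold change was 0.68 (SE 0.265, adjusted p = 0.277 in limma). *Pgam2*, the muscle form, had 1154, 716 and 938 against 1309, 925 and 939 and overlapped (log2 fold change 0.18). *Pgk1*, the phosphoglycerate kinase that makes the first ATP of the pathway, had 240, 228 and 179 against 252, 268 and 241. Its groups did not overlap either, but the log2 fold change of 0.24 had an interval from −0.13 to 0.61 (adjusted p = 0.566 in limma).

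*Eno3*, the muscle enolase, had 3924, 3378 and 3667 in CtrlCre and 2778, 3072 and 3642 in Cpt1bcKO samples, while *Eno1*, the general form, had 185, 172 and 134 against 176, 250 and 170. Both overlapped, with log2 fold changes of −0.21 (95% confidence interval −0.54 to 0.11) and 0.27 (−0.19 to 0.73). *Gapdh* ranged from 1056 to 1414 and from 1163 to 1688, and *Pkm*, pyruvate kinase, from 1681 to 2272 and from 1702 to 2165. Several of these genes have processed pseudogenes of near-identical sequence, and reads on more than 1 place had been left out by the authors, so the levels of *Gapdh*, *Pgk1*, *Pgam1*, *Eno1*, *Tpi1*, *Aldoa* and *Ldha* may be understated.

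Of the 3 lactate genes tested, 2 fell, against 0.906% of all genes. *Ldha*, the A subunit of lactate dehydrogenase, which favours the making of lactate (ENSMUSG00000063229, chr7:46845839-46855627, plus strand), had 1238, 1090 and 1164 normalised read counts in CtrlCre samples 1, 2 and 3 and 799, 736 and 734 in Cpt1bcKO samples 1, 2 and 3. The samples of each group lay close together and the groups were well apart. The mean fell by 35.0%, with a log2 fold change of −0.62 (SE 0.131, 95% confidence interval −0.91 to −0.33, adjusted p = 0.0477 in limma). *Slc16a1*, which encodes the monocarboxylate transporter MCT1 that carries lactate and pyruvate with a proton (ENSMUSG00000032902, chr3:104638668-104658462, plus strand), had 1690, 1673 and 1526 against 1176, 953 and 902. All Cpt1bcKO samples were lower, and the mean fell by 38.0% (log2 fold change −0.70, SE 0.145, 95% confidence interval −1.02 to −0.37, adjusted p = 0.0461 in limma). *Slc16a1* holds the intronic gene *Gm43581* on the same strand, which had 29 to 150.

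Both calls stood close to the threshold. Scaling to the sum without mitochondrial-encoded and rRNA genes, which moved the median of all genes to 0.11, gave log2 fold changes of −0.51 for *Ldha* (adjusted p = 0.103 in limma) and −0.59 for *Slc16a1* (adjusted p = 0.0995). Without CtrlCre samples 1, 2 and 3 in turn, the adjusted p was 0.144, 0.117 and 0.171 for *Ldha* and 0.133, 0.161 and 0.122 for *Slc16a1*. Without Cpt1bcKO samples 1, 2 and 3 it was 0.0359, 0.235 and 0.117 for *Ldha* and 0.0143, 0.237 and 0.128 for *Slc16a1*.

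*Ldhb*, the heart subunit of lactate dehydrogenase, which favours the use of lactate, had 6297, 4296 and 4470 in CtrlCre and 4949, 4047 and 4347 in Cpt1bcKO samples. These overlapped, with a log2 fold change of −0.16 (95% confidence interval −0.55 to 0.23). Within each sample the log2 ratio of *Ldha* to *Ldhb* was −2.35, −1.98 and −1.94 in CtrlCre and −2.63, −2.46 and −2.56 in Cpt1bcKO samples. The difference of −0.46 lay between groups that did not overlap (exact permutation p = 0.10, adjusted 0.30). Per kb of exon, *Ldha* supplied 10.1% ± 1.36 of the *Ldha* and *Ldhb* signal in CtrlCre and 7.49% ± 0.419 in Cpt1bcKO CMs (SD, n = 3 each). *Slc16a3*, the exporter MCT4 of glycolytic cells, was very low with 3, 5 and 6 against 3, 3 and 3 and was not tested.

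**Figure D2:**
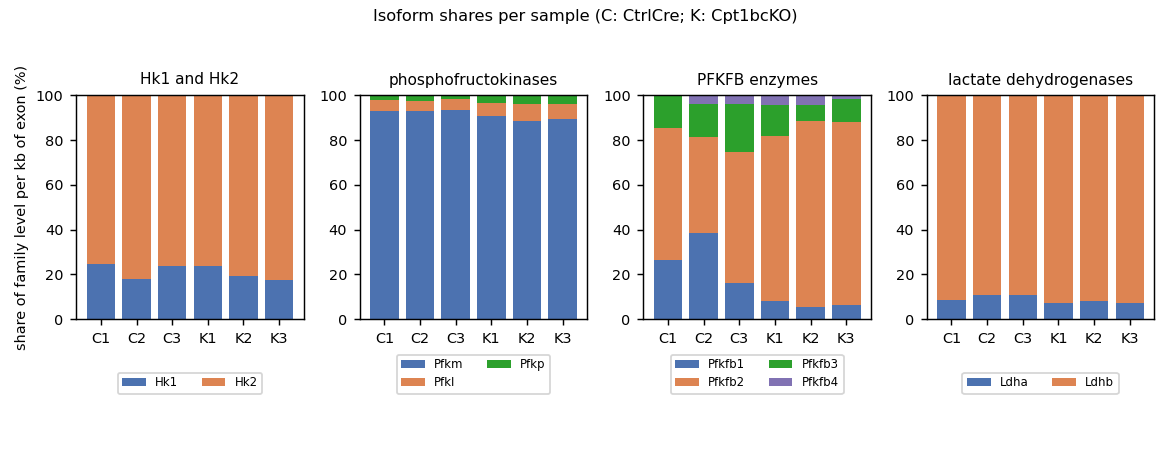
Share of each gene in its family's level per kb of exon (y axis, %) in each CtrlCre (C) and Cpt1bcKO (K) sample. *Pfkm*, *Hk2* and *Ldhb* are the leading genes of their families in all 6 samples, and *Pfkfb2* rises from 42.5% to 59.0% in C1 to C3 to 73.9% to 83.3% in K1 to K3.

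Of the 9 glycogen genes tested, 4 were higher and 5 lower, and 1 passed the adjusted threshold, against 1.57% of all genes in either direction. This was *Ugp2*, which encodes UDP-glucose pyrophosphorylase, which makes the UDP-glucose that glycogen synthase polymerises (ENSMUSG00000001891, chr11:21321138-21371201, minus strand). It had 1445, 1639 and 1410 normalised read counts in CtrlCre samples 1, 2 and 3 and 4300, 3230 and 2696 in Cpt1bcKO samples 1, 2 and 3. The lowest Cpt1bcKO sample was above the highest CtrlCre sample by a wide margin. The mean rose 2.28-fold, with a log2 fold change of 1.16 (SE 0.178, 95% confidence interval 0.77 to 1.56, adjusted p = 0.0111 in limma). It stayed between 0.98 and 1.32 with each sample left out in turn, and the call was lost without CtrlCre sample 3 (adjusted p = 0.0654) and without Cpt1bcKO sample 2 (0.0720). The level of *Ugp2* per kb of exon went from 488 ± 40.2 to 1111 ± 266 (SD, n = 3 each).

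None of the other 8 glycogen genes of the set passed the adjusted threshold in limma or had an unadjusted p below 0.05. *Gys1*, the muscle glycogen synthase, had 423, 379 and 363 against 362, 328 and 333. Its groups did not overlap, with a log2 fold change of −0.19 (SE 0.143, 95% confidence interval −0.50 to 0.13, adjusted p = 0.611 in limma). *Gyg*, the glycogenin primer, ranged from 314 to 370 in CtrlCre and from 238 to 379 in Cpt1bcKO samples, and *Gbe1*, the branching enzyme, from 364 to 414 and from 404 to 423. For breakdown, *Pygm*, the muscle glycogen phosphorylase, had 4774, 3801 and 3619 against 4147, 3156 and 3274, and *Pygb*, the brain form, which the heart also makes, had 1922, 1395 and 2422 against 1041, 1428 and 1719. Both overlapped, with log2 fold changes of −0.21 (95% confidence interval −0.57 to 0.16) and −0.45 (−0.96 to 0.06). *Phka1* and *Phkb*, regulatory subunits of phosphorylase kinase, ranged from 222 to 276 and 339 to 389 in CtrlCre and from 196 to 234 and 348 to 413 in Cpt1bcKO samples, and *Pygl*, the liver phosphorylase, from 14 to 23 and from 12 to 27.

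In the pentose phosphate pathway, 3 of the 4 genes were higher. *Tkt*, transketolase of the non-oxidative branch, had 22, 31 and 29 normalised read counts in CtrlCre and 50, 36 and 48 in Cpt1bcKO samples. The groups did not overlap, and the log2 fold change was 0.69 (SE 0.273, unadjusted p = 0.0295, adjusted p = 0.286 in limma). *Pgd*, the second NADPH-making enzyme of the oxidative branch, had 56, 55 and 52 against 65, 76 and 78, also without overlap (log2 fold change 0.42, SE 0.203, adjusted p = 0.400). *G6pdx*, which opens the pathway, was near the limit of the filter with 5 to 10 and 6 to 18, and *Taldo1*, transaldolase, had 163 to 226 and 96 to 201. Higher without overlap were 7 members, beside 1038 of all 11364 genes tested. Of these 7 members, *Tkt*, *Pgd*, *Pgam1*, *Pgk1* and *Pfkp* are genes that most cell types make. *Taldo1* of this pathway (log2 fold change −0.44) and *Hk1*, the hexokinase of most tissues (−0.24), were lower. *Eno1*, the general enolase, was higher (0.27), and all 3 overlapped between the groups. The fibroblast marker sum was higher in all 3 Cpt1bcKO samples (1866 to 2305 against 1104 to 1470), and its part in these values was not tested.

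**Figure D3:**
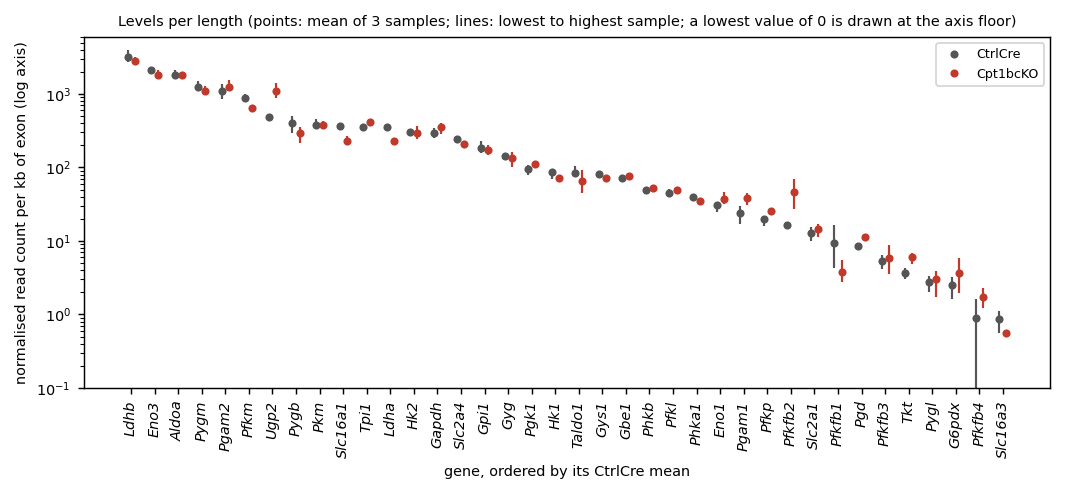
Normalised read count per kb of exon (log y axis) for the 38 genes of the set in the table, ordered by the CtrlCre mean. Points are means of 3 samples and lines run from the lowest to the highest sample, and *Ldhb*, *Eno3*, *Aldoa*, *Pygm* and *Pgam2* stand highest in CtrlCre while *Ugp2*, *Pfkfb2*, *Slc16a1* and *Ldha* show the clearest gaps between the groups.

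Per kb of exon, muscle and heart isoforms led the set. The CtrlCre means were 3198 for *Ldhb*, 2103 for *Eno3*, 1837 for *Aldoa*, 1263 for *Pygm* and 1114 for *Pgam2*, all above 894 for *Pfkm*. Further down stood 304 for *Hk2* and 242 for *Slc2a4*. Neighbours in this order often overlapped, such as *Pkm* (336 to 454), *Slc16a1* (345 to 382), *Tpi1* (329 to 390) and *Ldha* (329 to 374). The 4 genes that passed the adjusted threshold were spread over this order, with CtrlCre means of 488 for *Ugp2*, 368 for *Slc16a1*, 352 for *Ldha* and 16.6 for *Pfkfb2*.

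Beyond the set, a wider list of 84 other genes of these pathways was read from the same fit. Of these, 77 were in the table and 68 were tested. In Cpt1bcKO CMs 29 were higher and 39 lower (median log2 fold change −0.10). An adjusted p below 0.05 was reached by 3 genes (4.41%, against 1.57% of all genes) and an unadjusted one by 12 (17.6%, against 13.9%), 3 higher and 9 lower. Of the 3, 1 was higher and 2 were lower, and the lower ones were *Phkg1* and *Ppp1r3a*. No overlap between the groups was seen in 11 of the 68 genes (16.2%, against 18.7% of all genes), 3 higher and 8 lower.

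*Ppp1r3a*, the muscle subunit that holds protein phosphatase 1 on glycogen and so favours glycogen synthase, had 3455, 3359 and 2493 against 1605, 1643 and 1779. The groups were far apart, with a log2 fold change of −0.87 (SE 0.157, adjusted p = 0.0224 in limma). Its adjusted p was 0.0752 and 0.110 without CtrlCre samples 1 and 2 and 0.139 without Cpt1bcKO sample 2. *Phkg1*, the catalytic subunit of phosphorylase kinase in muscle, had 107, 72 and 75 against 3, 10 and 22, a log2 fold change of −3.07 (SE 0.537, adjusted p = 0.0203 in limma). The samples of Cpt1bcKO mice were near the limit of detection, and the size of this fall is therefore imprecise. With each sample left out in turn, the log2 fold change of *Phkg1* ran from −3.67 to −2.41. Its adjusted p was 0.0806, 0.0815 and 0.0860 without CtrlCre samples 1, 2 and 3 and 0.0987 without Cpt1bcKO sample 2. The other catalytic subunit, *Phkg2*, had 26, 24 and 11 against 16, 28 and 25.

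**Figure D4:**
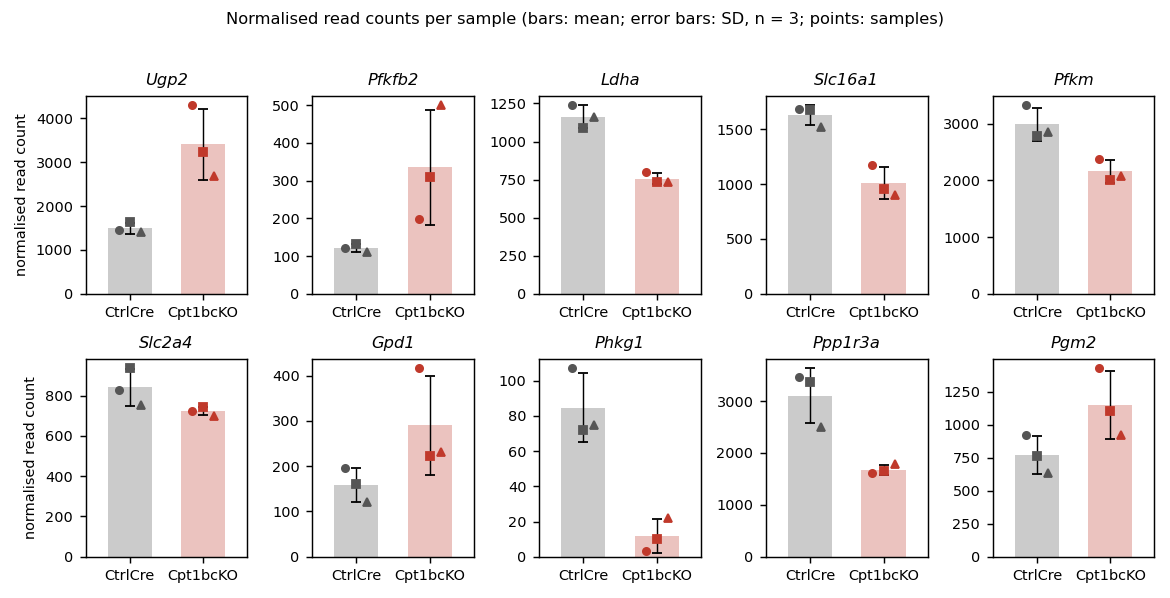
Normalised read counts (y axis, from 0) of 10 genes in each sample. Bars are means, error bars SD (n = 3), and circles, squares and triangles are samples 1, 2 and 3, and the groups are apart in all panels but *Pgm2*, where CtrlCre sample 1 (922) is above Cpt1bcKO sample 3 (921).

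Further genes of the wider list had an unadjusted p below 0.05 but not an adjusted one. Around glycogen, *Ppp1r3d*, another glycogen-targeting phosphatase subunit, had 64, 38 and 52 against 30, 24 and 17 (log2 fold change −1.09, SE 0.311, adjusted p = 0.141 in limma). *Pgm2*, a phosphoglucomutase, which makes the glucose 1-phosphate that *Ugp2* uses, had 922, 764 and 635 against 1428, 1102 and 921 (0.56, SE 0.194, adjusted p = 0.217). The groups met at 922 and 921. *Gpd1*, the cytosolic glycerol 3-phosphate dehydrogenase that draws on triose phosphate, had 195, 161 and 121 against 416, 222 and 232 (0.83, SE 0.264, adjusted p = 0.186), without overlap. With a term for sex, *Pgm2* (adjusted p = 0.0234), *Gpd1* (0.0139) and *Ppp1r3d* (0.044) passed the adjusted threshold in limma. The same term raised the calls in the whole table from 75 higher and 103 lower to 243 and 331.

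Among the 11 other transport genes tested, 3 were lower at an unadjusted p below 0.05, against 7.22% of all genes, and 0 at an adjusted one in limma. *Rab10*, the GTPase that sends GLUT4 vesicles to the membrane, had 868, 830 and 825 against 707, 570 and 695. *Vamp2*, a fusion protein of these vesicles, had 142, 117 and 121 against 113, 82 and 78, and *Lnpep*, the aminopeptidase that travels with GLUT4, 1555, 1981 and 1701 against 1195, 1455 and 1452. The groups did not overlap in any of the 3 (9.6% of all genes were lower without overlap), with log2 fold changes of −0.36, −0.49 and −0.35 and adjusted p values of 0.278, 0.324 and 0.330. The other GLUT4 traffic genes tested in the list, each at an unadjusted p above 0.05 and with groups that overlapped, were *Rab8a* (log2 fold change −0.43), *Tbc1d4* (−0.17), *Tbc1d1* (−0.07) and *Snap23* (−0.07), and the sign of the last 2 turned under the scaling without mitochondrial-encoded and rRNA genes. *Trarg1* was below the filter, at 2 to 6 and 5 to 14. *Txnip*, which brakes glucose uptake, had 3251, 2329 and 1322 against 1579, 1443 and 1228 and overlapped (log2 fold change −0.61, SE 0.273, adjusted p = 0.355). *Khk*, the fructose kinase, had 29, 37 and 28 against 19, 13 and 16 (−0.93, SE 0.313, adjusted p = 0.206), without overlap.

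**Figure D5:**
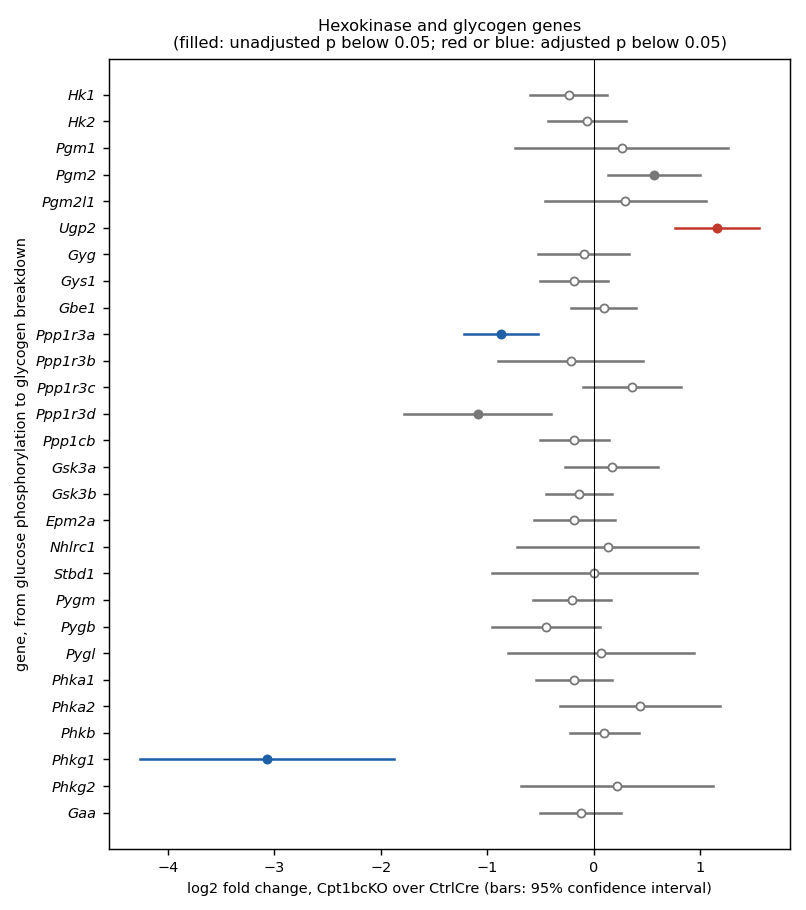
Log2 fold change of Cpt1bcKO over CtrlCre (x axis) with its 95% confidence interval from limma for 28 hexokinase and glycogen genes, ordered from glucose phosphorylation to glycogen breakdown. Filled points have an unadjusted p below 0.05, and coloured ones an adjusted p below 0.05, which are *Ugp2* (1.16) to the right and *Ppp1r3a* (−0.87) and *Phkg1* (−3.07) to the left.

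Of the 9 isoform ratios, those of *Pfkl* plus *Pfkp* to *Pfkm*, *Ldha* to *Ldhb* and *Pfkfb3* to *Pfkfb2* had groups that did not overlap, and the other 6 overlapped, with exact permutation p values of 0.20 to 0.70. The log2 ratio of *Slc2a1* to *Slc2a4* differed by 0.38, *Eno1* to *Eno3* by 0.48, *Pgam1* to *Pgam2* by 0.50, *Slc16a3* to *Slc16a1* by 0.23, *Hk1* to *Hk2* by −0.17 and *Pygb* to *Pygm* by −0.24. With 3 samples a group none of the 9 ratios could pass the test, so it does not separate these 6 from the other 3.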

How the data were processed

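RNA from CMs of 3 CtrlCre and 3 Cpt1bcKO mice had been sequenced from a stranded total RNA library. Per the submitters' processing notes and the paper's methods, the authors checked and trimmed reads (FastQC 0.11.8, Trimmomatic 0.36), aligned them with STAR 2.5.4b to mm10 (GRCm38.p5), counted them on genes with featureCounts 1.6.0, left out reads on several genes or regions, and normalised them with DESeq2 1.14.1. The annotation release and the use of strand in counting are not given in the sources used here. The deposited values are scores in the sense that the authors divided each sample's counts by a size factor and rounded them to whole numbers, so they are not raw counts, and count models were not used. The table also holds the authors' group means, fold changes and p-values for their comparison, which were not used.

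Values were taken as log2(value + 1), so fold changes of low genes are understated. Genes entered the test when 3 or more samples reached a value of 10. They were compared with limma 3.58.1 in R 4.3.3 (moderated test with a variance trend, two-sided, Benjamini–Hochberg adjustment over all 11364 genes tested). The depth behind a value is not known exactly after rounding, and p-values measure the spread between 3 samples a group. The members, the wider list, the marker lists and the isoform pairs were chosen with earlier results of these data known, and no list was tested as a set. Of the members, values in every sample are given for those with an unadjusted p below 0.05, with groups that do not overlap, in a listed isoform pair (that of *Aldoa* with *Aldoc* gave no ratio) or measured by qPCR in the study, and of the wider list, those among the 12 with the lowest unadjusted p below 0.05 are named, apart from 2 that are not reported here. The values of *Pfkfb4* and *Phkg2* were added after they were seen. The fibroblast, mural, endothelial, leukocyte, erythroid and CM marker lists are those summed in the text. Isoform ratios were compared as log2 ratios of values plus 1 with exact permutation tests. Levels per kb use exon lengths of GENCODE vM21, in which 26 of the 38 members have the same start and end as in the deposited table, and coordinates of genes are those of the deposited table. Of the 38 members, 18 overlap another gene of that annotation. Promoters are from RefSeq (GRCm38.p6). Tables and figures used Python 3.11.15, numpy 2.4.6, pandas 2.3.3 and matplotlib 3.10.9, and the fit was tested on simulated data. Alternatives were 2 other scalings, 2 filters, pseudocounts of 0.5 and 5, 1 prior variance for all genes, a replicate block, a sex term, a looser threshold and leaving out each sample in turn. The mural marker sum without *Abcc9* was added after seeing the data. Cpt1biKO samples were not analysed here.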

Additional observations from a re-analysis of the deposited data

How the results depend on the processing

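The direction of the 4 called members (*Ugp2*, *Pfkfb2*, *Ldha* and *Slc16a1*) was the same under every alternative run, but their calls were not. Those of *Pfkfb2*, *Slc16a1* and *Ldha* were close to the threshold (adjusted p = 0.0458, 0.0461 and 0.0477 in limma), and that of *Ugp2* (0.0111) was further from it. Leaving out each sample in turn gave 0 to 2 members called higher and 0 to 2 called lower, 17 to 137 genes of the whole table higher and 23 to 168 lower (main 75 and 103), and 0 to 1 higher and 0 to 2 lower genes of the wider list. All 4 members were called without Cpt1bcKO replicate 1, *Ugp2* alone without CtrlCre replicate 1, CtrlCre replicate 2 or Cpt1bcKO replicate 3, and 0 without CtrlCre replicate 3 or Cpt1bcKO replicate 2 (limma, where 8 and 6 members had an unadjusted p below 0.05). With 1 prior variance for all genes, limma called 0 members higher and 0 lower, 0 and 0 genes of the wider list, and 23 and 18 in the whole table, while 8 members had an unadjusted p below 0.05, and the cause was not tested. The main fit had 9 such members. The share of all genes with an unadjusted p below 0.05 in these other fits is not given here, so their member counts have no background. Scaling to the sum without mitochondrial-encoded and rRNA genes kept *Ugp2* and *Pfkfb2*, called 0 members lower, and gave 103 higher and 74 lower genes in the whole table. It turned the sign of 5 uncalled members. An adjusted p below 0.1 gave 134 higher and 190 lower genes in the whole table. Asking for 10 or more in all samples left 1 wider gene called lower, since *Phkg1* was no longer tested. A sex term gave 243 higher and 331 lower genes in all, 3 and 4 in the wider list, and 5 members, adding *Pfkm*.

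The replicate numbers were not taken as pairs. Deviations from the group means correlated across genes by 0.376, 0.255 and 0.0684 for numbers 1, 2 and 3, the last below 0.1, and CtrlCre sample 3 was closer to Cpt1bcKO sample 2 (0.119), so not every sample was closest to its own number. With a replicate block, 249 genes were higher and 354 lower in the whole table, 3 genes of the wider list were higher, among them *Gpd1* and *Pgm2* (adjusted p = 0.015 and 0.012 in limma), and *Pfkm* joined the 4 called members (adjusted p = 0.0219 in limma). Low genes such as *G6pdx*, *Pygl* and the PFKFB forms other than *Pfkfb2* may be limited by depth, which was not tested.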

Other observations

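In the hexosamine and polyol branches, which make UDP-N-acetylglucosamine and sorbitol, 3 of the 10 genes tested were higher and 7 lower, and 1 (*Khk*) had an unadjusted p below 0.05, which is 10% beside 13.9% of all genes tested. *Gfpt1*, the entry enzyme of hexosamine synthesis, had 216, 186 and 146 normalised read counts in CtrlCre and 136, 163 and 172 in Cpt1bcKO samples, and *Ogt*, which attaches the sugar to proteins, 454, 527 and 469 against 447, 579 and 567. Both overlapped between the groups. *Sord*, sorbitol dehydrogenase, had 813, 516 and 450 against 524, 442 and 395.

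Of the 12 glucose-sensing and AMPK genes, 5 were higher and 7 lower, and 1 (*Txnip*, log2 fold change −0.61, unadjusted p = 0.0481 and adjusted p = 0.355 in limma) had an unadjusted p below 0.05, which is 8.33%. *Prkaa2*, the catalytic AMPK subunit of muscle, had 1353, 1755 and 1501 against 1280, 1378 and 1372, a log2 fold change of −0.19 (SE 0.142, adjusted p = 0.603 in limma), with groups that overlapped. *Mlxipl*, the glucose-responsive factor ChREBP, had 69, 55 and 38 against 45, 72 and 98. Outside these 12 genes, *Tigar*, which lowers fructose 2,6-bisphosphate and so acts against the PFKFB kinases, had 243, 183 and 243 against 368, 235 and 268, a log2 fold change of 0.37 (SE 0.204, adjusted p = 0.456 in limma). *Bsg*, the chaperone that carries MCT1 to the membrane, had 4415, 3019 and 2665 against 5556, 3310 and 2950, with groups that overlapped (log2 fold change 0.20, 95% confidence interval −0.36 to 0.77, adjusted p = 0.773 in limma), and its sign turned without Cpt1bcKO sample 1 (−0.07). These genes were named after their values were seen.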
